A study of Mus musculus with 10 samples.

Results

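Adipoq, Retn, Cfd, Lpl, Fabp4, Plin1, Plin4, Cidec, Plin2 and Car3 are 10 genes of fat cells and of lipid storage, and their transcripts were followed in mouse lungs exposed to hyperoxia. The members were listed by symbol, and every probe set whose platform annotation gives exactly that symbol was taken. Of the 10 genes, 8 were measured, by 15 probe sets, out of 18193 genes measured in all. Cfd, which encodes the complement protease adipsin, and Plin1, the main droplet coat of white fat cells, had no probe set of 1 symbol and have no value here. The probe set with the highest mean over the 10 arrays leads for each gene, and the others serve as a check. A gene was kept for testing when its log2 value was 5 or more on at least 2 arrays, which left 14988 genes, among them all 8 members measured. Adipoq and Cidec reached 5 only on the 2 P29 room-air arrays, so they passed through the group in which they were high, and counts over the members are given as descriptions and not as support.

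Fat cells store triglyceride in a single large droplet. Lipoprotein lipase, made in the tissue and anchored on capillaries, releases fatty acids from circulating lipoproteins, fatty acid binding proteins carry them inside the cell, and proteins of the perilipin and CIDE families coat and enlarge the droplet. The full fat cell also secretes hormones such as adiponectin and, in rodents, resistin. In the newborn lung the cells best known for lipid droplets are lipofibroblasts, interstitial fibroblasts of the alveolar wall that carry perilipin 2 and are described as a source of lipid for surfactant. Alveolar macrophages and capillary endothelium also express Lpl or Fabp4, and fat around the hilum and mediastinum lies next to a dissected lung.

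A pair of promoter stretches is shown because their genes mark the ends of the range at P29, Adipoq with the greatest fall among the members and Plin2 with the smallest. Each is the 250 bases before the annotated start, from RefSeq on GRCm38.p6, written in the direction of transcription. Capitals mark a nuclear receptor half-site, read here on the opposite strand.
Adipoq, chr16:23146286-23146535, plus strand: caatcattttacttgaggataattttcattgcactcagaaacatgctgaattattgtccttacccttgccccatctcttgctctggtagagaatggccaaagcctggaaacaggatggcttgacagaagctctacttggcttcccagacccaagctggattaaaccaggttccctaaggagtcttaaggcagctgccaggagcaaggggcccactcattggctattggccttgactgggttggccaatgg
Plin2, chr4:86670060-86670309, minus strand: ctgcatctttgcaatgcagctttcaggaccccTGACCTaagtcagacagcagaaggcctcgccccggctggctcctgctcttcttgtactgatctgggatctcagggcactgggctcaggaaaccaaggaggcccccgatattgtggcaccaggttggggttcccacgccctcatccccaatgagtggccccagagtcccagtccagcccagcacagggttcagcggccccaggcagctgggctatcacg
Promoter windows of 250 bases before to 50 after the start were found for 7 members (8 windows, 2 of them for Cidec) and searched on both strands. The nuclear receptor half-site was searched as AGGTCA and, for PPAR with RXR, as the DR1 direct repeat of it. The core read by C/EBP factors was searched as TTGCNNAA and the TATA box as TATAAA. The half-site AGGTCA was found in the Plin2 window, starting at -218 from the start site on the minus strand, and in 16.3% of 32851 promoters of the same length. TTGCNNAA was found at -198 in the second Cidec window and at -187 and -58 in the Plin1 window, against 10.8% of all promoters. The DR1 repeat, which contains the half-site and is present in 0.0396% of promoters, and the TATA box, present in 13.6%, were not found in these 8 windows. A match describes letters only.

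Lungs came from ICR mice whose pups had been pooled and randomised within 12 hr of birth to room air or to 80% oxygen, until postnatal day 14 (P14) or 29 (P29), with nursing dams rotated between the exposures. The 4 groups were P14 room air (2 arrays), P14 hyperoxia (3), P29 room air (2) and P29 hyperoxia (3), named in the labels WT and BPD, the latter for the bronchopulmonary dysplasia that the exposure models. Lungs were dissected by hand and washed in PBS, and the labels do not say how far adjoining tissue was trimmed. They do not say that each array is a separate animal, so p-values measure only how far these samples differ, which may be technical, and the number of arrays limits the precision. Across genes, Pearson r was 0.993 to 0.996 between arrays of the same group. Sftpb, the surfactant protein B gene of the alveolar epithelium, lay between 10.86 and 13.33 on the log2 scale on the 10 arrays. The difference between the 3′ and 5′ actin control probe sets, a sign of RNA quality, was 0.32 to 0.74 on the room-air arrays and 1.33 to 2.21 on the hyperoxia arrays. These ranges do not overlap, so RNA quality and exposure cannot be told apart. Fits below with this difference as a term do not separate them. All P14 arrays and P29 hyperoxia replicate 1 had the male pattern of Xist and Y-linked transcripts, both P29 room-air arrays and P29 hyperoxia replicate 2 the female pattern, and P29 hyperoxia replicate 3 carried both, with Xist at 11.94 and a Y-linked mean of 7.71.

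Among the hormones of fat cells, Adipoq, which encodes adiponectin, was seen above 5 in P29 room air alone. Its log2 values (probe set 1422651_at) were 4.14 and 3.92 in P14 room air, 3.95, 3.92 and 3.85 in P14 hyperoxia, 7.98 and 7.05 in P29 room air, and 4.99, 4.28 and 4.55 in P29 hyperoxia. Both P29 room-air arrays stood above all the others, and the P14 arrays of both exposures lay together. The P29 log2 change with hyperoxia was -2.91 ± 0.24 (SE; limma, adjusted p = 3.42e-06, and 2.39e-06 with no filter on level). The P29 hyperoxia arrays all lay under the filter level, so this is the difference of the values as measured and no fold is given. In bulk tissue, fewer cells of a type and less RNA per cell cannot be told apart.

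Resistin, the product of Retn, had a narrower range. Retn values (1449182_at) were 6.75 and 6.63 in P14 room air, 6.39, 6.10 and 6.41 in P14 hyperoxia, 7.41 and 7.0 in P29 room air, and 6.27, 6.30 and 6.56 in P29 hyperoxia. At each age all hyperoxia arrays lay below both room-air arrays, and the hyperoxia arrays of the 2 ages overlapped. The log2 change with hyperoxia was -0.39 ± 0.14 (SE) at P14 (adjusted p = 0.0353) and -0.83 ± 0.14 at P29 (adjusted p = 0.000452). The P14 call was lost without P14 room air replicate 1 (limma, adjusted p = 0.183) or replicate 2 (0.0668) and without P14 hyperoxia replicate 2 (0.115). It was also lost with quantile normalization (0.0573) and with array weights (0.0512).

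For fatty acid supply, Lpl encodes lipoprotein lipase. Its lead probe set (1415904_at) read 11.80 and 11.61 in P14 room air, 11.84, 11.63 and 11.80 in P14 hyperoxia, 12.17 and 12.50 in P29 room air, and 11.74, 11.59 and 11.70 in P29 hyperoxia. The 2 P29 room-air arrays stood above the other 8, which spanned 11.59 to 11.84. Lpl was 1.58-fold lower in hyperoxia at P29 (log2 change -0.66 ± 0.11 SE, limma, adjusted p = 0.000496). The second Lpl probe set (1431056_a_at) also fell at P29 (-1.04 ± 0.13). At P14 the probe sets disagreed in sign, with 0.05 ± 0.11 on the lead (adjusted p = 0.733, 95% interval -0.20 to 0.29) and -0.35 ± 0.13 on the second (adjusted p = 0.0544 over all probe sets of 1 symbol).

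Fabp4, the fatty acid binding protein of fat cells that macrophages and capillary endothelium also make, followed a pattern close to that of Adipoq. On 1417023_a_at it read 6.82 and 6.82 in P14 room air, 6.4, 6.76 and 6.52 in P14 hyperoxia, 9.21 and 8.85 in P29 room air, and 7.32, 7.06 and 7.10 in P29 hyperoxia. P29 room air was highest, P29 hyperoxia came next, and the P14 arrays lay lowest, with hyperoxia below room air on every array but by little. The P29 log2 change with hyperoxia was -1.87 ± 0.13 (SE), 3.65-fold (adjusted p = 1.22e-06), and the P14 change was -0.26 ± 0.13 (adjusted p = 0.122, 95% interval -0.55 to 0.04). A second probe set (1451263_a_at) gave -1.50 ± 0.15 at P29 and -0.07 ± 0.15 at P14. Of the other 2, 1424155_at reached 5 on 1 array and fell at P29 (-1.13 ± 0.19), and 1425809_at stayed below 5 on every array and was not called.

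Of the genes that coat or enlarge the droplet, Plin4 encodes perilipin 4, a coat protein of fat and muscle cells. Its values (1418595_at) were 5.64 and 5.0 in P14 room air, 5.75, 5.98 and 5.89 in P14 hyperoxia, 7.0 and 6.77 in P29 room air, and 5.83, 6.05 and 5.87 in P29 hyperoxia. The hyperoxia arrays were above room air at P14 and below it at P29, and the hyperoxia arrays of the 2 ages overlapped. In hyperoxia Plin4 was higher by 0.55 ± 0.16 (SE, log2) at P14 (limma, adjusted p = 0.0131). At P29 its change was -0.97 ± 0.16 (adjusted p = 0.0004). The P14 rise rests on P14 room air replicate 2, without which it was 0.24 (adjusted p = 0.17).

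Cidec, whose product fuses droplets into the single droplet of white fat, lay low throughout. Values on 1452260_at were 4.45 and 4.06 in P14 room air, 3.77, 3.54 and 3.77 in P14 hyperoxia, 5.66 and 5.37 in P29 room air, and 3.76, 3.67 and 3.92 in P29 hyperoxia. Only the P29 room-air arrays passed 5, and at both ages the hyperoxia arrays lay below room air. The log2 change with hyperoxia was -1.73 ± 0.13 (SE) at P29 (adjusted p = 2.27e-06, and 1.71e-06 with no filter on level) and -0.56 ± 0.13 at P14 (adjusted p = 0.00489). As for Adipoq, the P29 hyperoxia arrays lay under the filter level and no fold is given. All P14 values of Cidec lay below 5, and its P14 call was lost without P14 room air replicate 1 (-0.37, adjusted p = 0.0746).

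Perilipin 2, encoded by Plin2, coats droplets in most cell types and is the droplet marker used for lipofibroblasts. Plin2 (1448318_at) read 11.17 and 11.34 in P14 room air, 10.86, 10.93 and 10.89 in P14 hyperoxia, 11.16 and 11.24 in P29 room air, and 11.03, 10.96 and 10.95 in P29 hyperoxia. Room air was above hyperoxia at both ages, the room-air arrays of the 2 ages overlapped, and all 10 values lay within 10.86 to 11.34. The log2 change with hyperoxia was -0.37 ± 0.08 (SE) at P14 (adjusted p = 0.00265) and -0.22 ± 0.08 at P29 (adjusted p = 0.034). The P29 call was lost without P29 room air replicate 1 or 2 or P29 hyperoxia replicate 2 or 3 (adjusted p = 0.063, 0.174, 0.0729 and 0.0807).

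Car3 encodes carbonic anhydrase 3, an abundant protein of fat cells and of slow skeletal muscle. On 1449434_at it read 6.67 and 6.07 in P14 room air, 4.76, 5.52 and 5.29 in P14 hyperoxia, 10.76 and 10.09 in P29 room air, and 9.15, 8.0 and 8.34 in P29 hyperoxia. Each group stood clear of the next, in the order P29 room air, P29 hyperoxia, P14 room air and P14 hyperoxia. The log2 change of Car3 with hyperoxia was -1.93 ± 0.33 (SE) at P29, 3.81-fold (limma, adjusted p = 0.000509). At P14 it was -1.18 ± 0.33, 2.27-fold (adjusted p = 0.0111). Without P14 room air replicate 1 the P14 change was -0.88 (adjusted p = 0.126). A second probe set (1460256_at) gave -2.36 ± 0.23 at P29 and -0.41 ± 0.23 at P14, where its values were 4.54 to 5.17. The other 2 Car3 probe sets, at or below 5 on 9 or more arrays, gave -0.65 and -0.14 at P29.

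**Figure D1:**
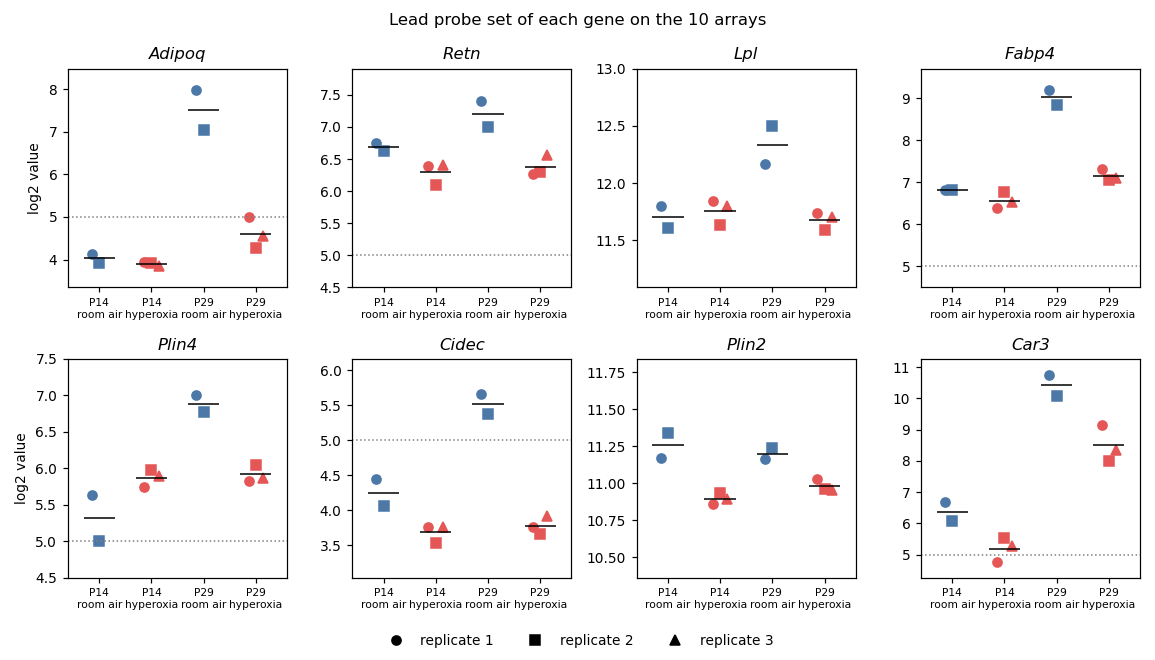
Log2 value of the lead probe set of each measured gene on the 10 arrays, by group, with the group mean as a bar, the symbol for the replicate number and, where values come near it, a dotted line at the filter level of 5. Each panel has its own axis. P29 room air stands highest for 7 genes, and Plin2 spans only 10.86 to 11.34.

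At P29 all 8 measured genes were lower in hyperoxia than in room air, by log2 changes from -0.22 (Plin2) to -2.91 (Adipoq). Of all genes kept, 25.6% were called lower, as these 8 were, and 34.2% higher in that comparison at an adjusted p under 0.05. The median log2 change was -1.35 over the 8 members and 0.04 over all genes. Scaling each array to its upper quartile moved that last median to -0.09. Every hyperoxia array lay below both room-air arrays for the 8 genes, as it did for 33.1% of all genes, and above both for 0 members and 41.2% of all genes. Both P29 room-air arrays had the female pattern. Against them, the only hyperoxia array with the female pattern alone gave -3.23 for Adipoq, -2.42 for Car3, -1.97 for Fabp4 and -1.84 for Cidec (limma, adjusted p = 5.88e-05, 0.00064, 6.58e-05 and 0.00011). In this fit the lone array is assumed to vary like the other groups. Retn, Lpl and Plin4 also stayed called, at -0.91, -0.74 and -0.84, and Plin2 did not (-0.24, adjusted p = 0.124). With P29 hyperoxia replicate 3, the array with both Xist and Y-linked transcripts, left out, Adipoq was at -2.88, Car3 at -1.85 and Fabp4 at -1.84. The actin control difference goes with exposure on these arrays, so a fit with it as a term cannot separate RNA quality from hyperoxia. In such a fit Adipoq (-2.35, adjusted p = 0.014), Fabp4 (-1.74, 0.00552) and Cidec (-1.64, 0.00759) were called lower. In that fit Car3 (-1.75, 0.126), Retn (-0.86, 0.0827), Lpl (-0.70, 0.0759), Plin4 (-0.86, 0.121) and Plin2 (-0.27, 0.276) were not, and 19.4% of all genes were called.

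By P14 the genes had not moved together. Car3, Cidec, Retn and Plin2 were lower in hyperoxia and Plin4 was higher, while Adipoq, Fabp4 and Lpl were not called. Fabp4 was called lower with upper-quartile scaling (-0.36, limma, adjusted p = 0.0414) and without P14 hyperoxia replicate 2 (-0.36, 0.0455). Of all genes kept, 22.8% were called lower and 32.3% higher. The median over the 8 members was -0.31, against 0.04 over all genes. Hyperoxia arrays lay below both room-air arrays for 5 members (31.7% of all genes) and above them for 1, Plin4 (39.6%). The Adipoq change was -0.13 ± 0.24 (SE, adjusted p = 0.669) with a 95% interval of -0.66 to 0.40, and both groups lay below 5, where a fall has little room to show. Without P14 room air replicate 1 only Plin2 was still called lower, and without replicate 2 no member was called higher. With the actin control difference as a term, 0 members were called in either direction and 9.28% of all genes were.

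**Figure D2:**
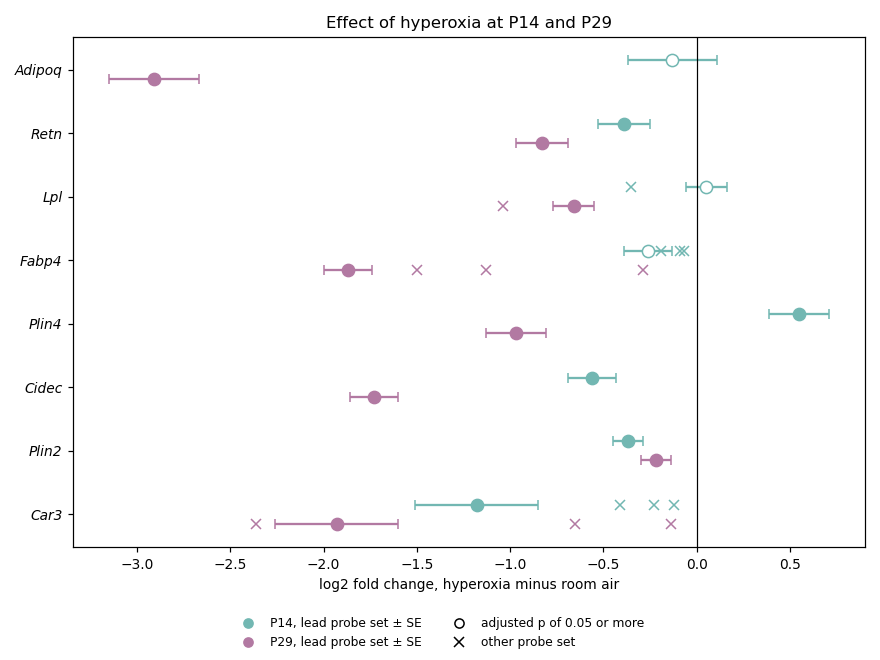
Log2 fold change of hyperoxia against room air at P14 and P29 for each gene, with points for the lead probe set, bars of 1 SE, open points for an adjusted p of 0.05 or more, and crosses for the other probe sets. At P29 all lead points lie left of 0, from -0.22 for Plin2 to -2.91 for Adipoq, and at P14 Plin4 lies to the right at 0.55.

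The effect of hyperoxia differed between the P14 and P29 arrays for 5 members. All P14 arrays had the male pattern and both P29 room-air arrays the female one, so age and sex cannot be told apart in this difference. In hyperoxia Adipoq, Fabp4, Plin4, Cidec and Lpl were lower by more, or lower in place of higher, at P29 than at P14. The P29 effect minus the P14 effect was -2.78 ± 0.34 (SE, log2) for Adipoq, -1.61 ± 0.19 for Fabp4, -1.53 ± 0.23 for Plin4, -1.17 ± 0.19 for Cidec and -0.70 ± 0.16 for Lpl (limma, adjusted p = 0.000259, 0.000193, 0.000816, 0.00143 and 0.00881). Of all genes, 11.6% were called in this direction and 11.0% in the other. Adipoq and Cidec entered testing only through P29 room air, and with no filter on level their adjusted p was 0.000215 and 0.00143 (limma). For Retn the difference was -0.44 (adjusted p = 0.136, 95% interval -0.88 to -0.01), for Car3 -0.75 (0.29, -1.78 to 0.28) and for Plin2 0.15 (0.39, -0.10 to 0.40), and these did not pass. On the second Car3 probe set, which lay near 5 at P14, it was -1.94 ± 0.32 (adjusted p = 0.00265), and on the mean of all Car3 probe sets -0.78 (adjusted p = 0.0278).

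Between P14 and P29 in room air, 7 of the 8 genes rose and 0 fell, where 22.2% of all genes rose and 19.1% fell. The log2 change was 4.06 ± 0.36 (SE) for Car3, 16.7-fold, and 3.48 ± 0.26 for Adipoq, from P14 values under 5 (limma, adjusted p = 5.96e-06 and 1.83e-06). Adipoq and Cidec entered testing only through P29 room air, so their rises here are descriptions. With no filter on level their adjusted p was 1.2e-06 and 4.06e-05 (limma). Fabp4 rose by 2.21 ± 0.15, Plin4 by 1.57 ± 0.18, Cidec by 1.26 ± 0.15, Lpl by 0.63 ± 0.12 and Retn by 0.52 ± 0.15, and the Retn call was lost without P29 room air replicate 1 (0.31, adjusted p = 0.169) or P14 room air replicate 2 (0.46, 0.103). Plin2 was at -0.06 ± 0.09 (adjusted p = 0.605). The P14 arrays had the male pattern and the P29 room-air arrays the female one, so age and sex cannot be told apart in room air. With the Y-linked level as a term Adipoq was at 3.98 and Car3 at 4.79, and Retn was not called (0.61, adjusted p = 0.0724). The slope of that term rests mainly on the P29 hyperoxia arrays, where the sex patterns differed, so these values do not separate age from sex. In hyperoxia 3 of the 8 rose with age and 0 fell, where 15.4% of all genes rose and 11.7% fell. Car3 rose by 3.31 ± 0.30, Adipoq by 0.70 ± 0.22 and Fabp4 by 0.60 ± 0.12 (adjusted p = 2.35e-05, 0.0323 and 0.00363). For Adipoq that call was lost when any 1 of P14 hyperoxia replicates 1 to 3 or P29 hyperoxia replicates 1 and 3 was left out. The other 5 lay between -0.07 and 0.09. These age comparisons share their arrays with the hyperoxia comparisons, so the 2 sets of values are not independent.

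Arrays of 1 group also differed in these genes. In P29 room air, replicate 1 was above replicate 2 by 0.93 for Adipoq, 0.67 for Car3, 0.40 for Retn and 0.37 for Fabp4, and Lpl ran the other way, at -0.33. For comparison, 99.8% of all genes kept had a smaller signed difference than Adipoq, 99.3% a smaller one than Car3 and 3.85% a smaller one than Lpl, and the SD of that difference over all genes was 0.21. Once the group means were removed, deviations over the 10 arrays (4 means removed, so few degrees of freedom) correlated at r = 0.84 for Fabp4 with Car3, 0.78 for Adipoq with Car3 and 0.75 for Adipoq with Fabp4. Retn and Cidec shared deviations at r = 0.86. Lpl went against Fabp4 (-0.61), and Plin2 against Cidec (-0.85). The pairs share arrays and normalization, and these values are descriptions.

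**Figure D3:**
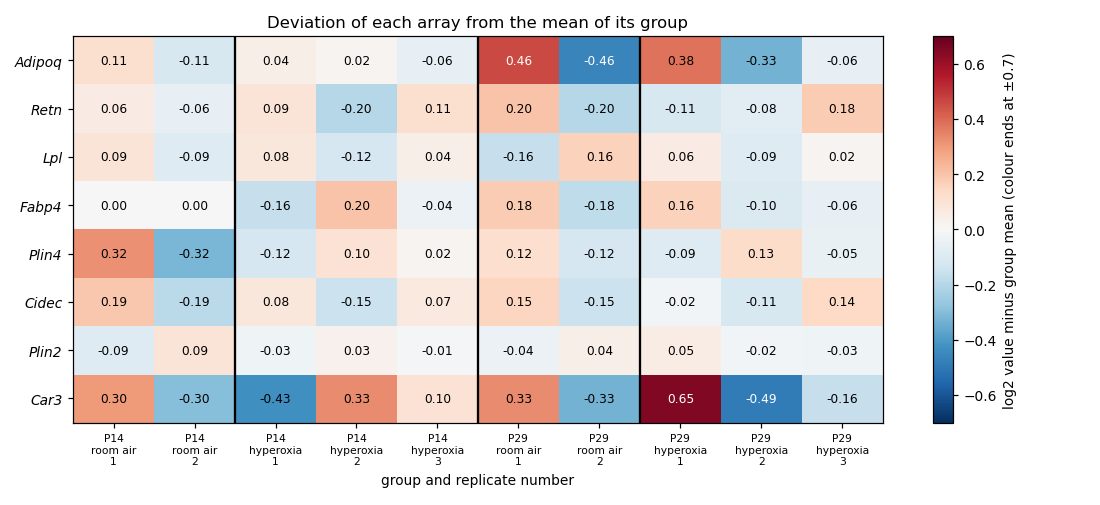
Deviation of each array's log2 value from its group mean, for the lead probe set of each gene (rows) on each array (columns, by group and replicate number), in colour and as a number. Adipoq, Fabp4 and Car3 are above their mean on replicate 1 and below it on replicate 2 of both P29 groups, and Lpl has the opposite sign in P29 room air.

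Other markers of fat were set beside the members. Of 22 listed fat cell genes that are not members, 20 were measured and 4 stayed below 5 on all arrays, among them Lep, the leptin gene, at 3.91 to 4.58. At P29, 11 of the 16 kept were lower in hyperoxia and 2 higher, beside 25.6% and 34.2% of all genes. The median was -0.38, and the 2 higher were Pnpla3 (0.52) and Cidea (0.38). With P29 hyperoxia replicate 2 as the only hyperoxia array 7 were lower, and with the actin term 4. Lipe, hormone-sensitive lipase, fell at both ages, with -1.33 ± 0.11 (SE) at P29 and -0.90 ± 0.11 at P14. Cyp2e1, a cytochrome P450 abundant in fat and liver, read 9.21 and 8.36 in P29 room air and 7.72, 6.78 and 7.39 in P29 hyperoxia (-1.48 ± 0.29). Sncg, a synuclein of fat cells and neurons, was at -0.73 and Fasn, fatty acid synthase, at -0.68. The mean over the list was 7.71 to 7.81 in P29 room air, 7.32 to 7.34 in P29 hyperoxia, 7.30 to 7.31 in P14 room air and 7.08 to 7.15 in P14 hyperoxia. At P14, 5 were lower and 2 higher (median -0.18), beside 22.8% and 32.3% of all genes. With the actin term 0 were lower and 0 higher there, beside 9.28% of all genes called in either direction. Over the 10 arrays, deviations of the list mean correlated at 0.70 with those of Retn, 0.49 with Adipoq, 0.26 with Fabp4, 0.18 with Car3 and -0.44 with Lpl.

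Lipofibroblast and alveolar fibroblast genes were called at P29 in shares near those of all genes (34.2% higher and 25.6% lower). Of 21, 7 were higher in hyperoxia and 6 lower, with a median of 0.02, or -0.11 with upper-quartile scaling (4 higher and 8 lower). With the actin term 1 was higher and 3 lower. Tcf21, a transcription factor of these fibroblasts, read 11.28 and 11.61 in P29 room air and 11.86, 11.74 and 11.77 in P29 hyperoxia (0.34 ± 0.11 SE, adjusted p = 0.022). At P14 it was lower in hyperoxia (-0.71 ± 0.11), and in room air it fell between P14 and P29 (-1.49 ± 0.12). Pdgfra, a growth factor receptor of alveolar fibroblasts, was at -1.28 ± 0.11 at P14 and -0.65 ± 0.11 at P29. Among the genes of smallest p, Gyg, the glycogenin gene, and Vegfd were higher at P29 (1.14 and 1.01) and Slc7a10, an amino acid transporter, and Wnt2 lower (-1.17 and -0.82). At P14, 12 of the 21 were lower and 5 higher, with a median of -0.36, beside 22.8% and 32.3% of all genes. With the actin term 5 were lower and 1 higher there, beside 9.28% of all genes called in either direction. The list mean was 10.40 to 10.63 in P29 room air and 10.51 to 10.57 in P29 hyperoxia, and deviations of Adipoq and of the list mean correlated at -0.59 over the 10 arrays, those of Lpl at 0.74. Pparg, the nuclear receptor that drives fat cell differentiation and is also active in lipofibroblasts and alveolar macrophages, was at 0.18 ± 0.09 at P14 (adjusted p = 0.0946) and -0.35 ± 0.09 at P29 (adjusted p = 0.00513).

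Among 22 lipase partners and uptake genes, 10 were lower and 4 higher at P29 (median -0.23), beside 25.6% and 34.2% of all genes. With the actin term 5 were lower and 2 higher. Gpihbp1, the endothelial anchor of lipoprotein lipase, read 11.93 and 11.68 in P29 room air and 8.15, 9.06 and 8.82 in P29 hyperoxia (-3.13 ± 0.20 SE, adjusted p = 6.25e-07). Cd36, a fatty acid transporter, was at -1.59 ± 0.10, and Fabp5, another fatty acid binding protein, at -0.85 ± 0.09. Meox2, an endothelial homeobox factor, was higher by 1.35 ± 0.14. At P14, 13 of the 22 were lower and 3 higher, beside 22.8% and 32.3% of all genes. With the actin term 1 was lower and 1 higher. Without that term Gpihbp1 was at -0.83 ± 0.20 and Cd36 at -0.75 ± 0.10 at P14.

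Markers of cells that also express Lpl or Fabp4 moved in the same comparison. Of all genes kept, 25.6% were lower and 34.2% higher at P29, and 22.8% lower and 32.3% higher at P14. With the actin term 19.4% of all genes were called at P29, and 9.28% at P14, in either direction. Of 16 alveolar macrophage genes, 14 were lower at P29 and 0 higher (median -1.05; 8 lower with the actin term). At P14, 10 were lower and 2 higher (median -0.43; 1 lower and 0 higher with the actin term). Siglecf, a surface lectin of these cells, read 6.79 and 7.25 in P29 room air and 4.09 to 4.34 in P29 hyperoxia (-2.85 ± 0.15 SE), with Krt79 at -2.22, Fabp1 at -3.60 and Cd9 at -1.24. The list mean was 9.33 to 9.46 in P29 room air and 8.08 to 8.22 in P29 hyperoxia. Over the 10 arrays its deviations correlated at 0.87 with those of Lpl, 0.07 with Adipoq and -0.44 with Fabp4. Marco, a scavenger receptor, was at -1.02 at P14 and -0.76 at P29. Of 17 capillary endothelial genes, 13 were lower and 1 higher at P29 (median -0.98; 12 lower with the actin term), among them Pecam1 at -1.32 ± 0.10, Tek at -1.69 ± 0.11, Ramp2 at -1.65 and Ednrb at -1.52, and the list mean was 11.25 to 11.27 against 10.20 to 10.37. At P14, 9 of the 17 were lower and 2 higher (median -0.35; 3 lower and 1 higher with the actin term). Deviations of the capillary list ran against those of Adipoq, at r = -0.63, of Car3, at -0.54, of Lpl, at -0.43, and of Fabp4, at -0.23. The part of macrophages or endothelium in the fall of Lpl and Fabp4 was not tested.

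Tissue that can come with a dissected lung was also checked. The shares of all genes kept were 25.6% lower and 34.2% higher at P29, and 22.8% lower and 32.3% higher at P14. With the actin term 19.4% of all genes were called at P29 and 9.28% at P14, in either direction. Of 10 skeletal muscle genes kept, 6 were lower at P29 and 0 higher (median -0.40; 1 lower with the actin term), another 6 listed stayed below 5 on all arrays, and the list mean was 6.29 to 6.5 in P29 room air and 5.99 to 6.14 in P29 hyperoxia. Its deviations correlated at 0.79 with those of Fabp4, 0.71 with Car3, 0.62 with Adipoq and -0.49 with Lpl over the 10 arrays. Ryr1, the calcium release channel of muscle, was at -0.85 at P29, Myoz1 at -0.44, Atp2a1 at -0.41 and Tnni2 at -0.40, all called lower, and Acta1, skeletal actin, was at 0.41 ± 0.21 (adjusted p = 0.11) at P29 and 1.15 ± 0.21 at P14. Among 14 heart muscle genes 6 were lower and 2 higher at P29 (median -0.50), or 0 and 1 with the actin term. With the Y-linked level as a term 9 were lower and 2 higher. Sln, an atrial regulator of the calcium pump, was at -1.91, Pln, its ventricular relative, at -1.26, Actc1, cardiac actin, at -0.93, Nppb, a natriuretic peptide, at 0.66 and Myh6, a cardiac myosin, at -0.07 ± 0.25 (adjusted p = 0.833). At P14, 5 heart genes were higher and 2 lower, or 0 and 1 with the actin term. Deviations of the heart list correlated at 0.64 with those of Car3, 0.49 with Fabp4 and 0.41 with Adipoq. Mesothelial genes were higher in hyperoxia for 8 of 10 and lower for 1 at P14 (median 1.12; 4 and 0 with the actin term), and higher for 1 and lower for 3 at P29 (median -0.24), among them Nkain4 at -0.75, Krt19 at -0.65 and Upk3b at -0.62, with Wt1 higher at 0.47. With the Y-linked level as a term 3 mesothelial genes were higher and 2 lower at P29. The difference between the ages was lower for 7 of these 10 (median -1.41), beside 11.6% of all genes. Thymus genes were lower for 6 of 9 and higher for 1 at P29, or lower for 2 with the actin term. Cd8b1 was at -1.28, Themis at -0.68, Cd4 at -0.65 and Rag2 at -0.50. At P14 thymus genes were lower for 6 and higher for 0, or 0 and 0 with the actin term. Of 5 liver genes 1, Apoa1, was lower at P29 (-0.48), or 3 with upper-quartile scaling, and Ttr, Apoa2 and Ahsg were at -0.26, -0.26 and -0.20. Over the 10 arrays, deviations of the thymus list correlated at 0.74 with those of Retn, 0.69 with Cidec and -0.57 with Plin2. Those of the mesothelial list correlated at 0.69 with Plin4 and -0.72 with Plin2. Fat attached to the lung was not measured apart from it, and its part in these values was not tested.

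**Figure D4:**
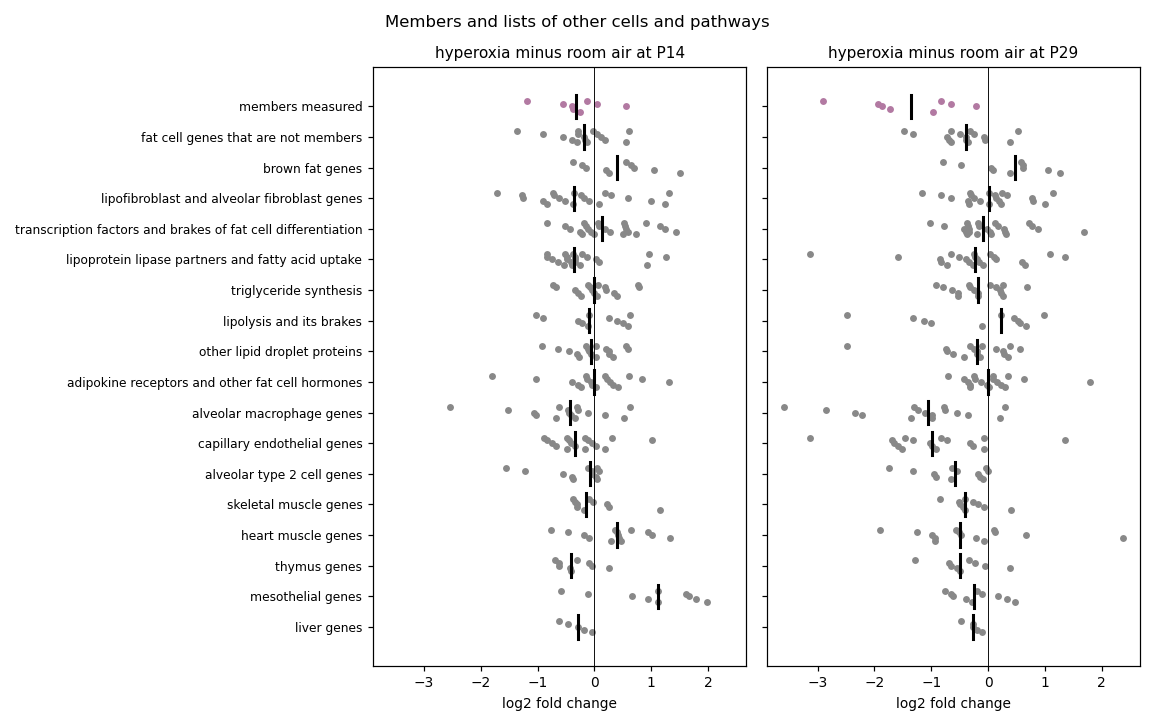
Log2 fold change of hyperoxia against room air at P14 (left) and P29 (right) for the members (coloured) and for each list of other genes (grey), 1 point a gene, with the median as a bar. At P29 the member median is -1.35, the macrophage and capillary medians are -1.05 and -0.98, and the lipofibroblast median is 0.02.

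The genes whose log2 values ran closest to Adipoq over the 10 arrays were sought among 4307 genes with a range of 1 or more. Slc13a4, a sulphate transporter, came first (Pearson r = 0.990), followed by the member Fabp4 (0.989), Lims2, a focal adhesion adaptor (0.983), Igha, the immunoglobulin A heavy chain (0.981), Hspb1, a small heat shock protein (0.978), and Pnpla2, the first lipase of triglyceride breakdown (0.977). The 4 next were Eps8l2, Gabarapl1, Pcolce2 and Tmem140, at 0.976 to 0.972. Among the members, r with Adipoq was 0.911 for Cidec, 0.869 for Car3, 0.862 for Plin4, 0.839 for Lpl, 0.835 for Retn and 0.420 for Plin2. The arrays fall in 4 groups, so a gene that is high in P29 room air alone scores high on this measure. Within groups, r with Adipoq was 0.76 for Slc13a4, 0.61 for Igha and -0.06 for Tmem140.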

How the data were processed

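Total RNA of whole lung was hybridised to Affymetrix mouse arrays. The authors deposited 1 value per probe set and array, on a log2 scale by its range (2.51 to 15). Per the submitters' processing notes, Partek 6.4 and GCRMA were used, with settings not given in the sources used here. Of 45101 probe sets, 34958 had 1 symbol in the platform annotation, 932 several and 9211 none, and only the first were used. Each gene was represented by its brightest probe set. All 10 arrays were fitted as 4 group means with limma 3.58.1 in R 4.3.3 (6 residual and 5.09 prior degrees of freedom), with two-sided tests and Benjamini-Hochberg adjustment over 14988 genes. SE is that of the fitted contrast.

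The members, the 17 gene lists and the tests were chosen with earlier results of these data known. Besides the members, the genes named are the up to 4 of smallest P29 p in each list, defining cell markers, and the 10 most like Adipoq. The 5 genes most like Lpl were also named. Alternatives were other filters, other choices of probe set, 2 scalings, array weights, a trended fit, a block by replicate number, fits without each array in turn, and terms for the actin difference and Y-linked level. Counts over the lists under these alternatives were added after the data were seen.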

Additional observations from a re-analysis of the deposited data

Results flagged for a closer look

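The effect of hyperoxia differed between P14 and P29 for 5 members by the test of the difference itself (limma, adjusted over all genes kept). The P29 effect minus the P14 effect was -2.78 for Adipoq, -1.61 for Fabp4, -1.53 for Plin4, -1.17 for Cidec and -0.70 for Lpl on the log2 scale. Leaving out any 1 array kept these between -3.24 and -2.32, -1.80 and -1.43, -1.85 and -1.21, -1.36 and -0.98, and -0.87 and -0.54. The P14 values of Adipoq and Cidec lay below 5 in both exposures. Age and sex cannot be told apart in the differences between P14 and P29. No group has 4 or more arrays, so single arrays far from the others were not sought.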

How the results depend on the processing

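The P29 fall of Fabp4 and the differences between ages of Fabp4, Plin4 and Lpl kept their direction and their side of the threshold under every alternative that gave a value. So did the P29 fall and the difference of Adipoq and Cidec, which entered testing only through P29 room air, so this is no support for them. Cidec has none with a filter at 6, and fits of the compared groups alone give none for the difference. With the actin difference as a term, members called lower at P14 went from 4 to 0, higher from 1 to 0, and lower at P29 from 8 to 3. That difference goes with exposure, so the term cannot separate RNA quality from hyperoxia. Leaving out 1 array gave 1 to 4 lower and 0 to 1 higher at P14. With P29 hyperoxia replicate 2 as the only such array, 1 member rose with age in hyperoxia in place of 3.

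Changes of sign occurred in values that the main setting had not called, and 1 of them, for Lpl, was then called. At P14 Adipoq was 0.47 with the actin term, and Lpl was -0.15 with the mean of probe sets, -0.35 with the probe set of largest variance (called, adjusted p = 0.0452), -0.05 with upper-quartile scaling, -0.01 with quantile normalization, -0.00 with the actin term and -0.05 to 0.14 without 1 array (-0.05 without P14 room air replicate 2). For age in room air Plin2 was 0.02 without that replicate. For age in hyperoxia Retn was -0.00 with replicate 2 alone and -0.02 to 0.13 without 1 array (-0.02 without P14 hyperoxia replicate 2 or P29 hyperoxia replicate 3), Plin4 was -0.05 with the Y-linked term and -0.02 to 0.10 without 1 array (-0.02 without P14 hyperoxia replicate 1 or P29 hyperoxia replicate 2), and Cidec was -0.02 with replicate 2 alone. The cause was not tested.

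Replicate numbers did not pair the samples (same-number r of deviations -0.099 to 0.197, with 3 of 10 arrays best matched by their own number). With them as a block, 7 members were lower at P29, Plin2 being lost (adjusted p = 0.0591), and the other counts of members stood at 1 higher and 4 lower at P14, 5 lower for the difference, and 7 and 3 higher for age. Values of Adipoq and Cidec outside P29 room air lie under the filter level of 5, which limits what can be seen of a change there.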

Other observations

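Further lists of lipid genes were measured, some of whose genes, Lipe, Pnpla3, Gpd1, Cidea, Pparg and Cebpd among them, also stand in lists described above. Counts moved with the setting, and those with upper-quartile scaling and then with the actin term are given in brackets, as lower and higher. Of all genes kept, 25.6% were lower and 34.2% higher at P29 in the main setting. With the actin term 19.4% were called, in either direction. Among 17 triglyceride synthesis genes, 6 were lower and 3 higher at P29 (9 and 1, then 1 and 1; median -0.18), with the phosphatidate phosphatases Lpin1 and Lpin3 at -0.91 and -0.79, the final acyltransferase Dgat2 at -0.64, and Gpam, the first acyltransferase, at 0.69. Of 11 lipolysis genes, 4 were lower and 6 higher (5 and 5, then 4 and 2; median 0.22). Hilpda, a hypoxia-induced inhibitor of lipolysis, was at -2.49 ± 0.18 (SE) at P29 against -0.12 ± 0.18 at P14 (adjusted p = 0.588), Mgll, monoglyceride lipase, at -1.12 ± 0.08, and Pde3b, a phosphodiesterase, at 0.98 ± 0.08. Among 17 other droplet proteins, 6 were lower and 5 higher (9 and 1, then 4 and 1), with Cav1, the caveolin gene, at -0.74, Rab8a at -0.72 and Hsd17b11 at -0.62. Of 24 transcription factors and brakes of fat cell differentiation, 8 were lower and 6 higher (10 and 4, then 4 and 1; median -0.09), with Zfp423 at 1.69, Gata3 at -1.03, Klf4 at 0.72 and Stat5b at -0.43. Of 18 adipokine receptors and other fat hormones 7 were lower and 4 higher (8 and 2, then 3 and 1). With the Y-linked level as a term 3 of these were lower and 3 higher. Adipor2, an adiponectin receptor, was at -0.70, Cap1 at -0.42, Cfb at 0.64 and Itln1, the intelectin gene, at 1.80.

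Among brown fat genes 6 of 10 were higher and 1 lower at P29 (median 0.48), beside 34.2% and 25.6% of all genes. With upper-quartile scaling 4 were higher and 2 lower (median 0.35), and with the actin term 0 and 0. Prdm16 (1.05), S100b (1.27), Ppargc1a (0.58) and Dio2 (0.62), the genes of smallest p, were higher, as was Cidea (0.38). The gene called lower was Cox8b (-0.79 ± 0.25 SE), a marker of brown fat. Ucp1, the uncoupling protein that defines brown fat, lay between 3.96 and 4.63 on all arrays. Of 12 alveolar type 2 cell genes, 7 were lower and 0 higher (9 and 0, then 3 and 0; median -0.59), with Sftpb at -1.74, Napsa at -1.32, Slc34a2 at -0.95 and Lpcat1 at -0.63.

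The genes closest to Lpl over the 10 arrays were Hepacam (Pearson r = 0.956), Rhoh, Il18, Sirpb1a and Chrdl1 (0.951 each), and r with Adipoq was 0.839. Here too a gene that is high in P29 room air alone scores high. Within groups, r with Lpl was 0.74 for Hepacam, 0.70 for Rhoh, 0.87 for Il18, 0.93 for Sirpb1a, 0.79 for Chrdl1 and -0.29 for Adipoq.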
